A study of Arabidopsis thaliana with 16 samples.

Results

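GFP-positive root tip cells of a CYCD6;1 reporter line of Arabidopsis thaliana were compared between the wox5 mutant and the wild type. The wild-type group, C6, held cells positive for pCYCD6:GUS-GFP, the CEI marker, and the mutant group, w5C6, held cells positive for the same reporter after a cross to wox5. These groups make up 8 of the 16 libraries and 2 of the 4 sorted populations of the series, with 4 libraries in each population. The other populations came from a pWOX5:erGFP line, of which W5S are the GFP-positive and W5NS the GFP-negative cells, and they serve below as a further reference for each gene. All seedlings were 5 days old, about 1 mm of root tip was collected, and the tips were turned into protoplasts, which are cells freed of their walls, before sorting. The labels name no treatment. The comparison covered all 33201 loci of the deposited table and asked which transcripts differed between marker cells with and without WOX5.

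The cortex endodermis initial (CEI) is a stem cell of the root that renews itself and gives rise to the cortex and the endodermis. The GRAS transcription factors SHR and SCR switch on CYCD6;1, a D-type cyclin, in this cell when its daughter divides lengthwise. WOX5 is a homeodomain factor made in the quiescent centre (QC), the organising cells next to the initials, and it keeps the neighbouring initials undifferentiated. Endodermal cells that leave the meristem build the Casparian strip, a ring of lignin in the wall that seals the tissue against uncontrolled diffusion. Plastids are present in root tip cells too, but photosynthesis is chiefly a task of the green shoot.

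The table gives 1 pooled value per locus and population, read as FPKM, in which fragments are counted per length of transcript and per size of library. No value per library was used here, so no spread between libraries and no test can be given, and every comparison below is a description of pooled values. Sequencing depth is unknown, and very small RNA inputs were amplified. Log2 ratios are log2 of (w5C6 + 1) over (C6 + 1) FPKM, a scale that understates differences of low transcripts. Among the 12198 loci that reached 10 FPKM in the higher of the 2 groups the median log2 ratio was -0.02, and the 5th and 95th percentiles were -1.07 and 1.00. Scaling both groups to the same upper quartile moved this median by 0.16. Because these are bulk samples, fewer cells of a type and less RNA per cell cannot be told apart. In wox5 roots the study saw the reporter beyond the CEI, in cortical and endodermal cells, and so C6 and w5C6 may differ in the kinds of cells sorted.

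WOX5 itself was checked first. Its level was 18.4 FPKM in C6 against 0.0865 in w5C6, with 42.1 in W5NS and 206 in W5S, a log2 ratio of -4.16. The mutant population was thus the lowest of the 4 by far, as its label says, and the wild-type marker cells held a low but present level. CYCD6;1, whose promoter drives the reporter, stood at 9.75 FPKM in C6 and 7.01 in w5C6, with 7.02 in W5NS and 0.828 in W5S. The transcript was therefore about as high in the GFP-negative cells of the other line as in the marker cells, and it does not set the marker populations apart. SCR read 48.9 FPKM in C6 against 47.6 in w5C6, with 17.4 in W5NS and 30.9 in W5S. The C2H2 factor MGP, a direct target of SHR, read 52.7, 30.3, 7.76 and 9.91 FPKM in that order. Both factors of the ground tissue were highest in the 2 marker populations.

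Markers of other cell types were detected in the sorts. Those of the epidermis and root hair summed to 1542 FPKM in C6 and 2340 in w5C6, against 777 in W5NS and 739 in W5S, over 16 genes of which 15 reached 10 FPKM and none was listed at 0. Root cap markers, 11 genes with none listed at 0, summed to 1024 FPKM in C6 and 278 in w5C6, with 866 in W5NS and 990 in W5S. The cellulase gene CEL5 alone gave 696, 113, 101 and 244 FPKM of these sums in that order. Without CEL5 the C6 sum would lie below those of W5NS and W5S. The 27 vascular and pericycle markers summed to 142 FPKM in C6 and 125 in w5C6, and the phloem marker S32 was listed at 0 in C6. None of 21 shoot apex and leaf identity genes reached 10 FPKM, with sums of 31.4 FPKM in C6 and 39.9 in w5C6, and 4 of the genes were listed at 0 in C6 and 3 in w5C6. Stomatal and leaf epidermis genes, 23 in all, summed to 49.9 and 55.6 FPKM. The part of these other cells in the differences below was not tested.

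A locus was counted as past the 4-fold mark when its log2 ratio was at least 2 in size and the higher group had at least 10 FPKM. In w5C6, 244 loci stood higher, which is 2.00% of the 12198, and 160 stood lower, which is 1.31%. Just inside the mark lay KDR, a small helix-loop-helix protein, at 2.68 FPKM in C6 and 13.8 in w5C6 (log2 ratio 2.01), and GSTU25, a glutathione transferase, at 1299 and 322 (-2.01). Just outside lay AT1G12451 at 5.53 and 24.9 FPKM (1.99) and AT4G36010 at 110 and 26.9 (-1.99). Of the higher loci 29 were listed at 0 in C6, and of the lower loci 9 were listed at 0 in w5C6.

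**Figure D1:**
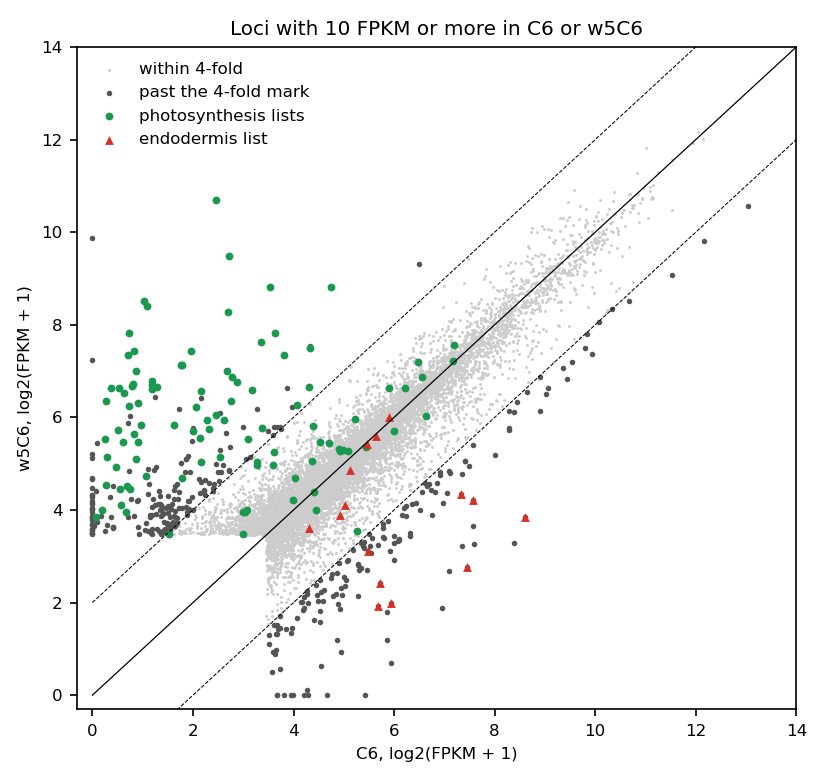
Levels of the 12198 loci with at least 10 FPKM in C6 or w5C6, as log2(FPKM + 1), with C6 on the horizontal and w5C6 on the vertical axis and 1 pooled value per population. Dashed lines mark a 4-fold difference; most photosynthesis genes (green) lie above the upper line at low C6 levels, and 8 genes of the endodermis list (red triangles) lie below the lower line.

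A large group among the higher loci was the nuclear-encoded apparatus of photosynthesis. Plastids capture light with antenna proteins bound to chlorophyll, pass electrons through photosystems II and I, and use the energy to fix carbon dioxide in the Calvin cycle, whose entry enzyme is Rubisco. The 5 lists used here cover these steps together with chlorophyll synthesis and photorespiration, the salvage path for the oxygenated product of Rubisco. They held 115 measured genes, of which 101 reached 10 FPKM, 69 stood higher past the mark and 0 lower. These genes made up 28.3% of the higher loci and 0.828% of all loci at that level. Summed over the lists, photosynthesis transcripts came to 1512 FPKM in C6 against 11034 in w5C6, with 1327 in W5NS and 1307 in W5S, or 0.158%, 1.22%, 0.183% and 0.165% of all FPKM. The mutant marker cells thus stood apart from all 3 wild-type populations, which lay close together.

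Rubisco small subunits had some of the largest ratios, led by RBCS1A at 4.51 FPKM in C6 and 1651 in w5C6 (8.23). RBCS3B stood at 1.13 FPKM in C6 and 340 in w5C6, with 0.0593 in W5NS and a listed 0 in W5S. RBCS2B read 0.657 FPKM in C6 and 224 in w5C6, with W5NS and W5S both listed at 0. RCA, the activase that frees Rubisco of bound inhibitors, read 1.27, 109, 1.26 and 0.887 FPKM in C6, w5C6, W5NS and W5S. Their log2 ratios were 7.32, 7.09 and 5.60. The small subunit genes are near-identical copies, so reads can be split among RBCS1B, RBCS2B and RBCS3B, which are also neighbours on chromosome 5, and their separate values are uncertain.

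Of 18 Calvin cycle genes, all at 10 FPKM or more, 13 stood higher and 0 lower (median log2 ratio 5.13). GAPA, a subunit of the plastid glyceraldehyde phosphate dehydrogenase, stood at 0.815 FPKM in C6 and 127 in w5C6, with 0.563 in W5NS and 0.101 in W5S. HCEF1, a fructose bisphosphatase, read 0.209 FPKM in C6 and 22.2 in w5C6, and both pWOX5:erGFP populations were listed at 0. PRK, the phosphoribulokinase that remakes the substrate of Rubisco, read 1.1, 25.8, 0.348 and 5.03 FPKM in C6, w5C6, W5NS and W5S. Members that also serve plastids without photosynthesis differed less. The plastid transketolase TKL1 read 73.5 FPKM in C6 and 99.1 in w5C6 (0.43), and the triose phosphate isomerase PDTPI 143 and 149 (0.06).

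Antenna genes gave 17 of 19 higher and 0 lower (median 5.22). LHCA2, an antenna protein of photosystem I, stood at 0.628 FPKM in C6 and 163 in w5C6, with 0.0184 in W5S and a listed 0 in W5NS. LHCB2.1, of the trimeric antenna of photosystem II, read 0.201 FPKM in C6 against 80.7 in w5C6, with 0.0429 in W5S, and was likewise listed at 0 in W5NS. PSBS, the sensor of excess light, read 8.09, 95.8, 8.4 and 1.65 FPKM in C6, w5C6, W5NS and W5S. The early light-induced proteins, which bind chlorophyll under stress, did not share this pattern. ELIP2 read 30.7 FPKM in C6 and 38 in w5C6, and ELIP1 37.6 and 10.7 (log2 ratios 0.30 and -1.72).

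Photosystem and electron transport subunits gave 28 of 32 higher and 0 lower (median 4.10), and each of the 32 had a ratio above 0. PSAO of photosystem I stood at 0.453 FPKM in C6 against 98.3 in w5C6, with 1.54 in W5NS and 0.175 in W5S. PSBO1, of the oxygen-evolving complex, read 2.87, 172, 5.06 and 0.737 FPKM in the same order. PETC, the Rieske iron-sulphur protein of the cytochrome b6f complex, read 2.1, 55.8, 2.09 and 0.717, and ATPC1, a subunit of the plastid ATP synthase, 0.824, 33.1, 0.798 and 0.135. The 2 ferredoxins differed: FD2 read 15.9 FPKM in C6 and 76.6 in w5C6 (2.20), and FD1 88.6 and 145 (0.71).

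**Figure D2:**
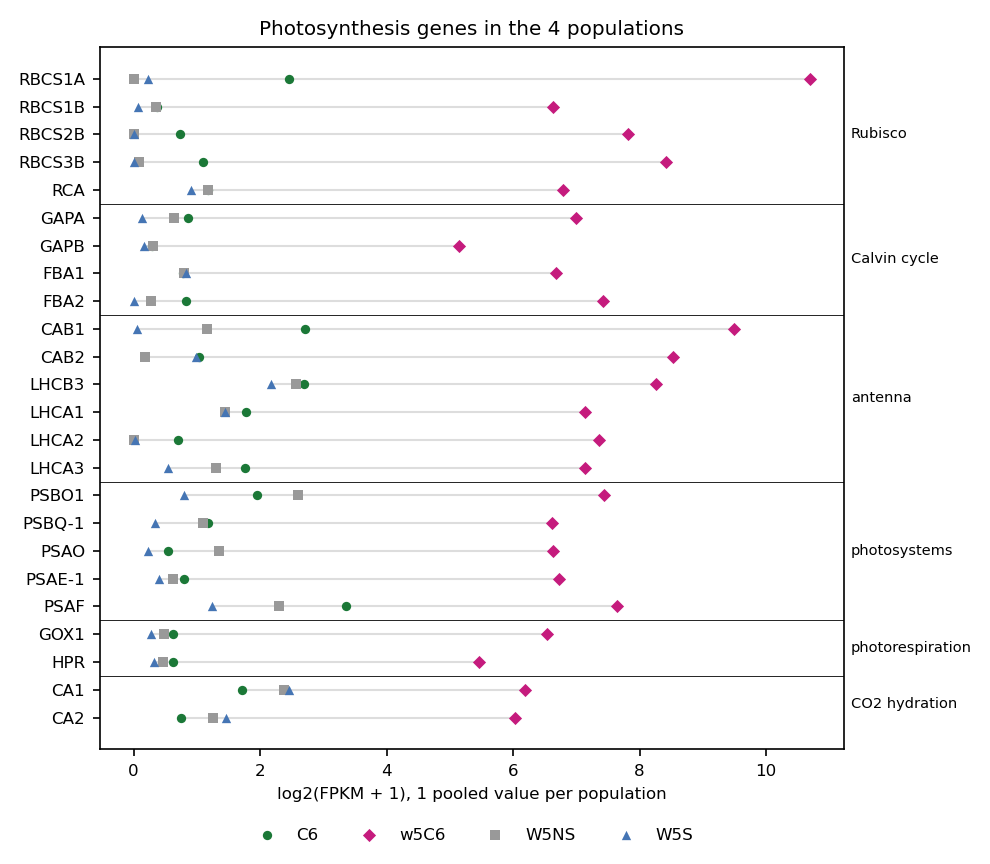
Levels of 24 photosynthesis genes as log2(FPKM + 1), 1 pooled value per population (circle C6, diamond w5C6, square W5NS, triangle W5S), grouped by step. For every gene drawn the w5C6 value lies to the right of the other 3, which lie at the low end.

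Photorespiration gave 8 of 15 higher and 0 lower (median 2.35). Its most abundant member, CAT2, was within the mark at 145 FPKM in C6 and 189 in w5C6 (0.38). GOX1, a peroxisomal glycolate oxidase, stood at 0.541 FPKM in C6 and 91.5 in w5C6, with 0.399 in W5NS and 0.205 in W5S. HPR, the hydroxypyruvate reductase, read 0.533, 43, 0.387 and 0.254 FPKM in that order. The root-expressed paralogue GOX3 instead read 20.9 FPKM in C6 and 15 in w5C6 (-0.45), and the glycine decarboxylase gene GLDP2 93.7 and 116 (0.31). GOX1 and GOX2 are neighbouring, similar genes that can share reads.

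Chlorophyll synthesis gave 3 of 17 higher and 0 lower (median 0.67). The 3 were the regulator GUN4 (0.462 FPKM in C6 against 20.8 in w5C6, with 0.379 in W5NS and 0.0487 in W5S), the cyclase subunit CRD1 (4, 52.6, 5.22 and 1.82) and CHLH, a subunit of magnesium chelatase (7.55, 45.4, 7.27 and 15). All 3 act on the magnesium branch that leads to chlorophyll. Genes of the steps shared with haem lay closer together, as with HEMA1, the first committed enzyme, at 28.8 and 38.9 FPKM (0.42), and HEMB1 at 42.7 and 40.2 (-0.09). The ferrochelatase FC1, which leads to haem, read 97.9 FPKM in C6 and 64.5 in w5C6 (-0.59).

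Known regulators of these genes did not differ to the same extent: 0 of 11 photosynthesis regulators that reached 10 FPKM were past the mark in either direction (median 0.36). GLK2, a factor that drives chloroplast development, read 11.9 FPKM in C6 and 15.5 in w5C6, with 7.64 in W5NS and 21.7 in W5S. HY5, a bZIP factor of light signalling, read 27.6, 37.5, 21.7 and 17.5 FPKM. The sigma factor SIG1, which directs the plastid polymerase, had the largest ratio of the list at 4.53 FPKM in C6 and 13 in w5C6 (1.34). The clock and flowering time list likewise held 0 of 8 past the mark (0.14).

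Several plastid genes outside the lists stood higher too; they were chosen after their values were seen. The carbonic anhydrase CA1, which interconverts carbon dioxide and bicarbonate, stood at 2.3 FPKM in C6 against 71.9 in w5C6, with 4.19 in W5NS and 4.52 in W5S. CHLM, the methyltransferase of chlorophyll synthesis, read 2.64, 33.2, 2.14 and 6.37 FPKM in that order. APE2, the triose phosphate translocator of the inner envelope, read 0.325, 22, 1.97 and 0.244, and THI1, a plastid enzyme of thiamine synthesis, 2.12, 21.9, 0.383 and 0.302. PTAC16, a protein of the plastid nucleoid, read 0.0582 FPKM in C6 and 20.3 in w5C6, and was listed at 0 in both pWOX5:erGFP populations.

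Genes carried by the plastid genome itself differed less than the nuclear genes. They took 1.08% of all FPKM in C6 and 2.27% in w5C6, beside 1.35% in W5NS and 1.1% in W5S. Of 81 such loci with 1 gene ID that reached 10 FPKM, 2 stood higher and 1 lower, 75 had a ratio above 0, and the median log2 ratio was 0.97. Mitochondrion-encoded loci gave 0 of 17 past the mark with a median of 0.38. These transcripts largely lack long poly(A) tails, and the library kit selects for poly(A), so their levels describe what the kit captured.

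Promoters of the photosynthesis genes were examined for motifs, since their members stood higher together. The window ran from 250 bases before to 50 bases after the annotated start, taken by gene ID from RefSeq (assembly TAIR10.1), and both strands were searched. The G-box (CACGTG) and the I-box (GATAAG, or CTTATC on the other strand) are short elements known from light-responsive plant promoters. The 3 windows shown first carry both motifs before the start and have the highest log2 ratios among the 5 such photosynthesis genes past the mark. Each sequence holds the 250 bases before the start, 5′ to 3′ on the strand of the gene, with G-boxes and I-boxes in capitals. RBCS2B lies on the minus strand of chromosome 5, PSAH2 on the plus strand of chromosome 1, and PSBQ-2 on the minus strand of chromosome 4.
RBCS2B: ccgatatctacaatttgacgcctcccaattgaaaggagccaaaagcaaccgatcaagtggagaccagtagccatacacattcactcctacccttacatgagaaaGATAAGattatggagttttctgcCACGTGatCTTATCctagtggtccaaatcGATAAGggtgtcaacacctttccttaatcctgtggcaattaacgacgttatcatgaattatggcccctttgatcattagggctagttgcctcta
PSAH2: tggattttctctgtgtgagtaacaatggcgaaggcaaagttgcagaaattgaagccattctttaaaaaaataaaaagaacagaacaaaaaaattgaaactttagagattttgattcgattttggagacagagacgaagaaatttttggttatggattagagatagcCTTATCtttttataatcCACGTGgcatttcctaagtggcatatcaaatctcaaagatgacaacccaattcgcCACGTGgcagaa
PSBQ-2: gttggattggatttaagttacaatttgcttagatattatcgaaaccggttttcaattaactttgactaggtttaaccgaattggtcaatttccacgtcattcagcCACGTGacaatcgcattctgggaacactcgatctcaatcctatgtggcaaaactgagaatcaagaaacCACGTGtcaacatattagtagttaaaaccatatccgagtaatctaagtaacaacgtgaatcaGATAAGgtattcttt

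In RBCS2B (0.657 FPKM in C6 and 224 in w5C6) the G-box began 123 bases before the start, with I-boxes that began 146, 115 and 94 bases before it. PSAH2, of photosystem I, at 0.944 and 55.8 FPKM, had G-boxes at 67 and 12 bases and an I-box at 84. PSBQ-2, of the oxygen-evolving complex, at 0.769 and 48.6 FPKM, had G-boxes at 145 and 77 bases and an I-box at 15. No G-box overlapped an I-box in these windows.

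Over the 69 photosynthesis genes that stood higher, 19 promoters (27.5%, Wilson 95% interval 18.4% to 39%) held a G-box and 28 (40.6%, 29.8% to 52.4%) an I-box. Among the 11649 promoters of loci at 10 FPKM or more the shares were 9.55% and 14.4%, and among all 26162 promoters 7.76% and 14.6%. The 32 photosynthesis genes at that level that were not past the mark held a G-box in 18.8% (8.89% to 35.3%) and an I-box in 21.9% (11% to 38.8%), intervals that overlap those of the 69. Both motifs together were found in 9 of the 69 (13%) and in 1.69% of the 11649. Of the other higher loci 10 of 113 (8.85%) held a G-box and 22 (19.5%) an I-box, and of the lower loci 13 of 150 (8.67%) and 26 (17.3%). RBCS1A, CAB2 and RBCS3B, which had the highest ratios of the photosynthesis lists, held neither motif in this window. Intervals cover counting error only, genes of a family share promoter sequence, and a match is a string of letters and not a shown binding site.

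**Figure D3:**
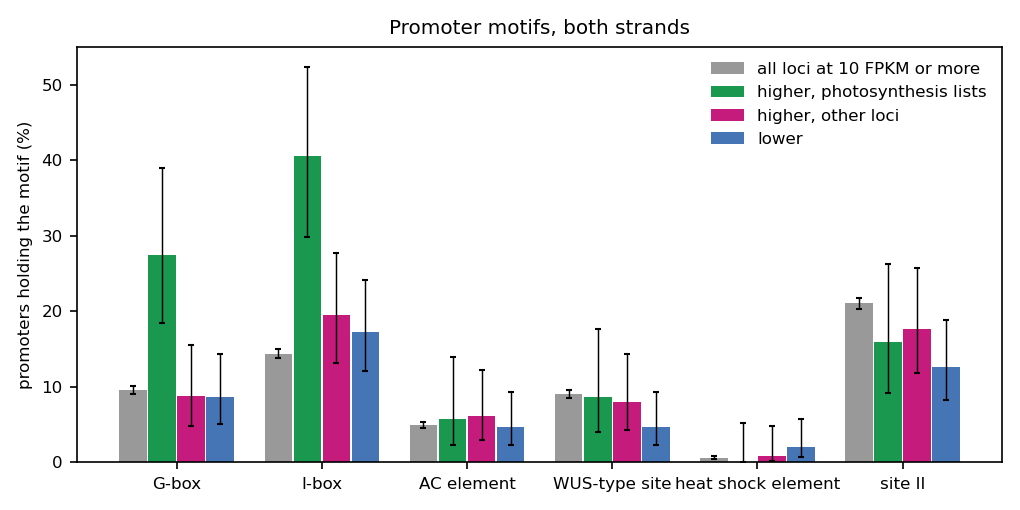
Share of promoters (%) that hold each of 6 motifs on either strand, in all loci at 10 FPKM or more, the 69 higher photosynthesis genes, the 113 other higher loci with a promoter and the 150 lower ones; bars start at 0 and whiskers are Wilson 95% intervals. The G-box and I-box bars of the photosynthesis genes (27.5% and 40.6%) stand above those of all loci (9.55% and 14.4%).

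Structural genes of the Casparian strip were a main group among the lower loci. Of 15 genes of endodermis identity and Casparian strip at 10 FPKM or more, 8 stood lower and 0 higher past the mark (53.3%, against 1.31% of all loci), with a median log2 ratio of -2.37. Summed over the 18 measured genes of the list, FPKM was 1392 in C6 and 304 in w5C6, beside 388 in W5NS and 388 in W5S. In this sum the wild-type marker cells were the high population, and w5C6 lay near the pWOX5:erGFP cells. The sum also holds genes that were nearly level between C6 and w5C6. For CASP1, w5C6 read 13.3 FPKM against 91.7 in W5NS and 53.1 in W5S. With 1 FPKM added to each value, w5C6 was at least 2-fold below every other population in 4 of the 8 lower genes.

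CASP proteins form the membrane platform on which the strip is laid down. CASP4 stood at 50.1 FPKM in C6 and 2.8 in w5C6, with 8.45 in W5NS and 8.16 in W5S (log2 ratio -3.75). For this gene w5C6 was below, and C6 above, every other population. CASP5 did not reach 10 FPKM in either marker population, at 6.79 in C6 and 2.24 in w5C6.

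Lignin is polymerised at the platform by peroxidases and placed by dirigent-like proteins. The peroxidase PER64 stood at 188 FPKM in C6 against 17.6 in w5C6, with 34.8 in W5NS and 27.9 in W5S (-3.35). ESB1, the dirigent-like protein needed for an unbroken strip, read 60.1, 2.99, 9.26 and 6.69 FPKM (-3.94). UCC1, a uclacyanin of the strip, read 159, 19.3, 37.3 and 54.1 (-2.98), and SGN1, the kinase that relays the barrier surveillance signal, 43.5, 7.6, 5.1 and 7.72 (-2.37). Next to ESB1 lies AT2G28671, at 10.9 FPKM in C6 and 0.409 in w5C6 (-3.08). The strand setting of the counting is not given in the sources used here. Reads of neighbouring genes that overlap therefore cannot be told apart.

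The regulators upstream of the strip lay closer together. MYB36, the factor that switches on the CASP genes, read 31.7 FPKM in C6 and 16.3 in w5C6, with 6.88 in W5NS and 16.7 in W5S (-0.92). MYB74, another MYB factor of the list, read 29.2 and 13.8 FPKM in C6 and w5C6 (-1.03), and the receptor kinase SGN3 18.8 and 11.2 (-0.70). Genes that also serve other cells were nearly level, with the oxidase RBOHF at 33.7 and 28.2 FPKM (-0.25) and the exocyst subunit EXO70A1 at 43 and 42.2 (-0.03). The ratio of 15 genes was below 0 in 14, EN7 being the exception.

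Dirigent-like proteins gave 6 of 13 lower and 0 higher (median -0.98), ESB1 among them. AT3G24020 stood at 163 FPKM in C6 against 8.29 in w5C6, with 32.4 in W5NS and 30.4 in W5S (-4.14). DIR6 read 125, 16.8, 30.6 and 38.9 FPKM (-2.82), and AT4G13580 67.4, 9.38, 17.8 and 8.86 (-2.72). The family was not uniform: AT5G42510 read 69.5 FPKM in C6 and 120 in w5C6 (0.78). The general monolignol pathway, which supplies lignin precursors in all cells, held 0 of 13 past the mark (median -0.05). Suberin and cutin genes, which act at a later stage of the endodermis, reached 10 FPKM in 4 of 18 cases with 0 past the mark (-0.68).

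CASP2 and CASP4 share the longest stretch of window sequence among 6 Casparian strip genes compared, namely CASP1, CASP2, CASP4, CASP5, ESB1 and PER64. It is shown because CASP2 and CASP4 both stood lower past the mark. Over the 15 pairs of windows this run was 19 bases, against 7 to 9 bases in the other 14 pairs. In CASP2 (plus strand of chromosome 3) it begins 156 bases before the start, and in CASP4 it begins 4 bases after the start. The 250 bases before the start of CASP2 follow, with the shared run in capitals, from the same RefSeq windows.
CASP2: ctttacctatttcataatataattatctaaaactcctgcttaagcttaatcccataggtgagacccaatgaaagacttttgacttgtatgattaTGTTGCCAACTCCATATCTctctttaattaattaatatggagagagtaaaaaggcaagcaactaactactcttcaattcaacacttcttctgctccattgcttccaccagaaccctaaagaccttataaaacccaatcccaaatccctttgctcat

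**Figure D4:**
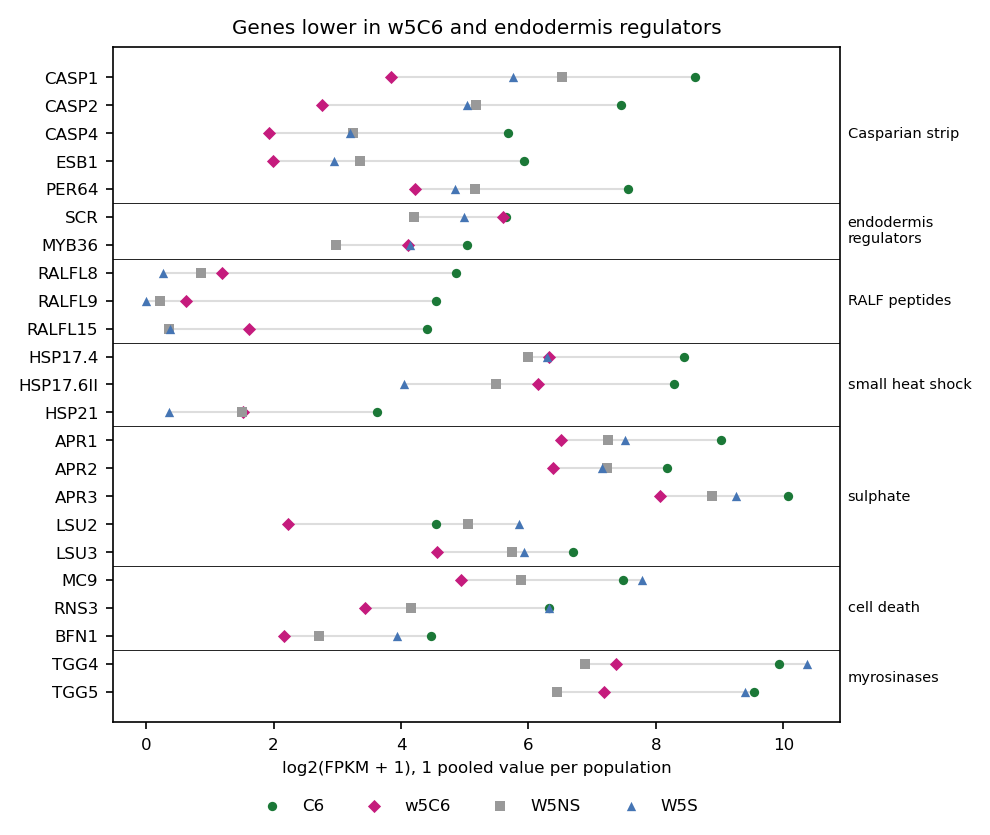
Levels of 23 genes as log2(FPKM + 1), 1 pooled value per population (circle C6, diamond w5C6, square W5NS, triangle W5S): genes lower in w5C6 by function, and the regulators SCR and MYB36. In the 5 Casparian strip rows (CASP1, CASP2, CASP4, ESB1 and PER64) C6 lies to the right of all other populations and w5C6 to the left, while SCR is level between the marker populations at 48.9 and 47.6 FPKM.

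Root cap and cell death genes formed another set of lower values. The outermost cap cells are shed or removed by programmed death, and enzymes that break down walls, proteins and nucleic acids are made beforehand. CEL5, a cellulase of the cap, stood at 696 FPKM in C6 and 113 in w5C6, with 101 in W5NS and 244 in W5S (-2.62). The ribonuclease RNS3 read 79, 9.84, 16.9 and 78.9 FPKM (-2.88), the metacaspase MC9 179, 29.9, 58.1 and 219 (-2.54), and the nuclease BFN1 21.1, 3.49, 5.53 and 14.3 (-2.30). For RNS3 and MC9 the level in C6 lay close to that in W5S, and w5C6 was the lowest of the 4. Of 6 developmental cell death genes at 10 FPKM or more, 3 stood lower and all 6 had ratios below 0 (median -2.13). This list was added after values were seen, so its counts describe chosen genes. Over all loci 1.31% stood lower.

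The NAC factors of the cap had smaller ratios. BRN1 read 99.7 FPKM in C6 against 42.8 in w5C6, with 33.3 in W5NS and 146 in W5S (-1.20), BRN2 73.7, 36.4, 32.4 and 126, and SMB 26.7, 16.9, 72.2 and 48.2 (-0.63). PIN3, an auxin exporter of the columella, read 16.6, 20, 133 and 72.8 FPKM and was thus low in both marker populations. Of 8 root cap genes at the level, 2 stood lower and 0 higher (median -1.10). The root cap sum, 1024 FPKM in C6 and 278 in w5C6, moved with the cell death genes, and its part in their values was not tested. CEL5 alone made up 696 and 113 FPKM of these sums, and BFN1 stands on both lists.

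Myrosinases cleave glucosinolates, the sulphur-rich defence compounds of this plant family. TGG4 stood at 980 FPKM in C6 and 165 in w5C6, with 117 in W5NS and 1329 in W5S (-2.57). TGG5 read 746, 145, 86.7 and 673 FPKM (-2.36). The pair are similar copies that can share reads, and both, the 2 of 5 measured myrosinases at the level, were high in C6 and W5S and low in the other populations. The jacalin-type lectin AT1G52070 had the largest difference in FPKM of all nuclear loci, at 8467 in C6 and 1520 in w5C6, beside 1356 in W5NS and 3103 in W5S (-2.48), and a related lectin, AT1G52050, read 894, 179, 187 and 706 (-2.31). These were the 2 of 9 jacalin-type lectins past the mark (median -0.41). Both lists, myrosinases and lectins, were added after values were seen.

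In sulphate assimilation the APS reductases had the lowest ratios among the steps named here. APR1, an APS reductase, stood at 521 FPKM in C6 against 90.2 in w5C6, with 151 in W5NS and 183 in W5S (-2.52). APR3 read 1080, 266, 470 and 614 FPKM (-2.02), and APR2 289, 82.2, 150 and 142 (-1.80), just short of the mark. The sulphur deficiency marker LSU2 read 22.4, 3.67, 32.1 and 56.7 (-2.33) and LSU3 103, 22.6, 52.7 and 60.1 (-2.14). All 5 transcripts were lowest in w5C6 among the 4 populations. The sulphate transporter SULTR1;2 read 127 FPKM in C6 and 54.1 in w5C6 (-1.22). Before APS reduction the sulfurylases APS1 and APS3 read 363 and 244 FPKM (-0.57) and 17.4 and 14.5 (-0.25). After it the sulphite reductase SIR read 284 and 258 (-0.14), the serine acetyltransferase SERAT2;1 449 and 185 (-1.28) and the cysteine synthase OASA1 270 and 267 (-0.01). In all 4 of 19 genes stood lower and 0 higher, and 15 had ratios below 0 (median -0.57). The list was added after values were seen, and 1.31% of all loci stood lower.

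Heat and stress transcripts were lower as well. Small heat shock proteins are chaperones that hold unfolding proteins. Of 22 members at 10 FPKM or more, 8 stood lower and 0 higher, 19 had ratios below 0 and the median was -1.69. Over all loci 1.31% stood lower. This list was a widened one, chosen with earlier results of these data known. HSP17.4 stood at 346 FPKM in C6 and 79.4 in w5C6, with 62.7 in W5NS and 77 in W5S (-2.11). The cytosolic class II member HSP17.6II read 312, 69.7, 43.8 and 15.6 FPKM (-2.14), and the plastid HSP21 11.3, 1.88, 1.85 and 0.277 (-2.10). C6 was the high population for each, and w5C6 lay closer to W5NS than to C6. Chaperones of other classes, chosen after their values were seen, were lower too, with HSP90.1 at 96.8 FPKM in C6 and 22.8 in w5C6 and Hsp70b at 45.9 and 9.51.

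Cold, drought and wound genes varied. RD29A, a marker of cold and abscisic acid, read 99.9 FPKM in C6 against 22 in w5C6, with 14.8 in W5NS and 16.3 in W5S (-2.13), and KIN1 37.7, 6, 22.5 and 17.6 (-2.47). Of 19 abscisic acid genes these 2 stood lower and 0 higher (median -0.36). ACO1, an enzyme that forms ethylene, read 45.7, 7.38, 15.2 and 29.7 FPKM (-2.48) and was the 1 of 26 ethylene, jasmonate and wound genes past the mark, with 20 ratios below 0 (median -0.50). CYP94B3, which inactivates jasmonoyl-isoleucine, read 257, 35.6, 20.4 and 9.96 FPKM (-2.82). Among the most abundant members of that list JAZ1, a repressor of jasmonate signalling, read 721 FPKM in C6 and 485 in w5C6 (-0.57), the zinc finger factor ZAT12 591 and 544 (-0.12) and ERF6 309 and 134 (-1.21). Of 44 AP2/ERF factors 4 stood lower and 0 higher, among them ABR1 at 66.9 and 9.05 FPKM (-2.76) and CRF7 at 50.6 and 8.41 (-2.45). Of 29 NAC factors 2 stood lower, NAC044 at 12.2 and 1.72 (-2.28) and NAC042 at 28.8 and 6.2 (-2.05), and 0 of 30 WRKY factors were past the mark.

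Single genes with large ratios came from hormone and peptide pathways. GA20OX5, a gibberellin oxidase, stood at 60 FPKM in C6 and 0.619 in w5C6, with 2.64 in W5NS and a listed 0 in W5S (-5.23). No other of the 14 gibberellin genes at the level was past the mark, and the list median was -0.02. RALF peptides are secreted signals that alter wall pH and growth. RALFL8 stood at 28.1 FPKM in C6 and 1.29 in w5C6, with 0.818 in W5NS and 0.202 in W5S (-3.67), its neighbour RALFL9 at 22.5 and 0.549 in C6 and w5C6 (-3.92), and RALFL15 at 20.2 and 2.06 (-2.79). RALFL7 went the other way, at 1.77 FPKM in C6 against 15.6 in w5C6, with 2.25 in W5NS and 1.42 in W5S (2.58). Among 13 RALF genes at the level 3 stood lower and 1 higher (median 0.24). The RALF list and the CLE list below were added after values were seen. CLE peptides signal through receptor kinases in meristems, and CLE19 (1.63, 14.3, 4.67 and 4.16 FPKM, ratio 2.54) and CLE7 (2.11, 13.3, 3.95 and 0.985, ratio 2.20) stood higher among 9 members (median 0.60).

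Higher loci outside photosynthesis included single members of several lists. Of 15 epidermis and root hair genes at the level, 12 had ratios above 0 (median 0.67). RSL1, a helix-loop-helix factor of hair cell fate, was the 1 past the mark, at 1.56 FPKM in C6 and 10.2 in w5C6, with 8.51 in W5NS and 2.79 in W5S (2.13). Its relative RHD6 read 6.07, 22.7, 24.2 and 37.7 FPKM (1.75), and the hair wall protein PRP3 584, 909, 251 and 167 (0.64). Aquaporins, water channels of the membrane, had 17 of 18 ratios above 0 with 0 past the mark (median 0.34). In the flavonoid path 1 of 7 genes was past the mark and 6 had ratios above 0 (median 0.85). TT7, the hydroxylase of the second ring, read 11.2, 54.5, 13.3 and 1.33 FPKM (2.18), while TT4, the entry enzyme, read 979 and 1034 (0.08). MYB4, a repressor of phenylpropanoid genes, stood at 12.2 FPKM in C6 against 54.2 in w5C6, with 19.7 in W5NS and 11.4 in W5S (2.06). Of 3 germin-like proteins GER1 stood higher at 4.82, 67.4, 5.29 and 0.987 FPKM (3.56) and GLP9 lower at 11.7, 1.85, 3.69 and 0.0246 (-2.16). BHLH39, a factor of iron uptake, read 4.25, 20.2, 2.5 and 0.201 FPKM (2.01), while its partner FIT was level at 26.2 and 26.6.

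Stem cell, hormone and division genes were close to level. Of 24 niche regulators at 10 FPKM or more, only WOX5 was past the mark (median -0.08). PLT1, an AP2 factor that sets meristem activity, read 45.5 FPKM in C6 and 59.7 in w5C6, with 151 in W5NS and 172 in W5S (0.38). JKD, a C2H2 factor that limits SHR movement, read 32.4, 40.8, 23.4 and 20.3 FPKM (0.32). None of 31 auxin genes was past the mark (median -0.09); the auxin synthesis gene YUC8 came nearest, at 78.1 FPKM in C6 and 22.6 in w5C6 (-1.75). The counts were 0 of 20 for cytokinin, 0 of 14 for D-type cyclins and CDK inhibitors, 0 of 27 for S phase and mitotic genes and 0 of 5 for the GRF and GIF family. CYCD4;1, a D-type cyclin, had the highest ratio of its list at 4.82 and 11.2 FPKM (1.07), and PCNA1, the sliding clamp of DNA replication, read 72.6 and 59.6 (-0.28). Core histones, made in S phase, had 0 of 34 past the mark and a median of -0.21, and the 296 nuclear ribosomal protein genes at the level a median of -0.22, a sign that the upper quartile scaling leaves in place but brings close to 0.

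**Figure D5:**
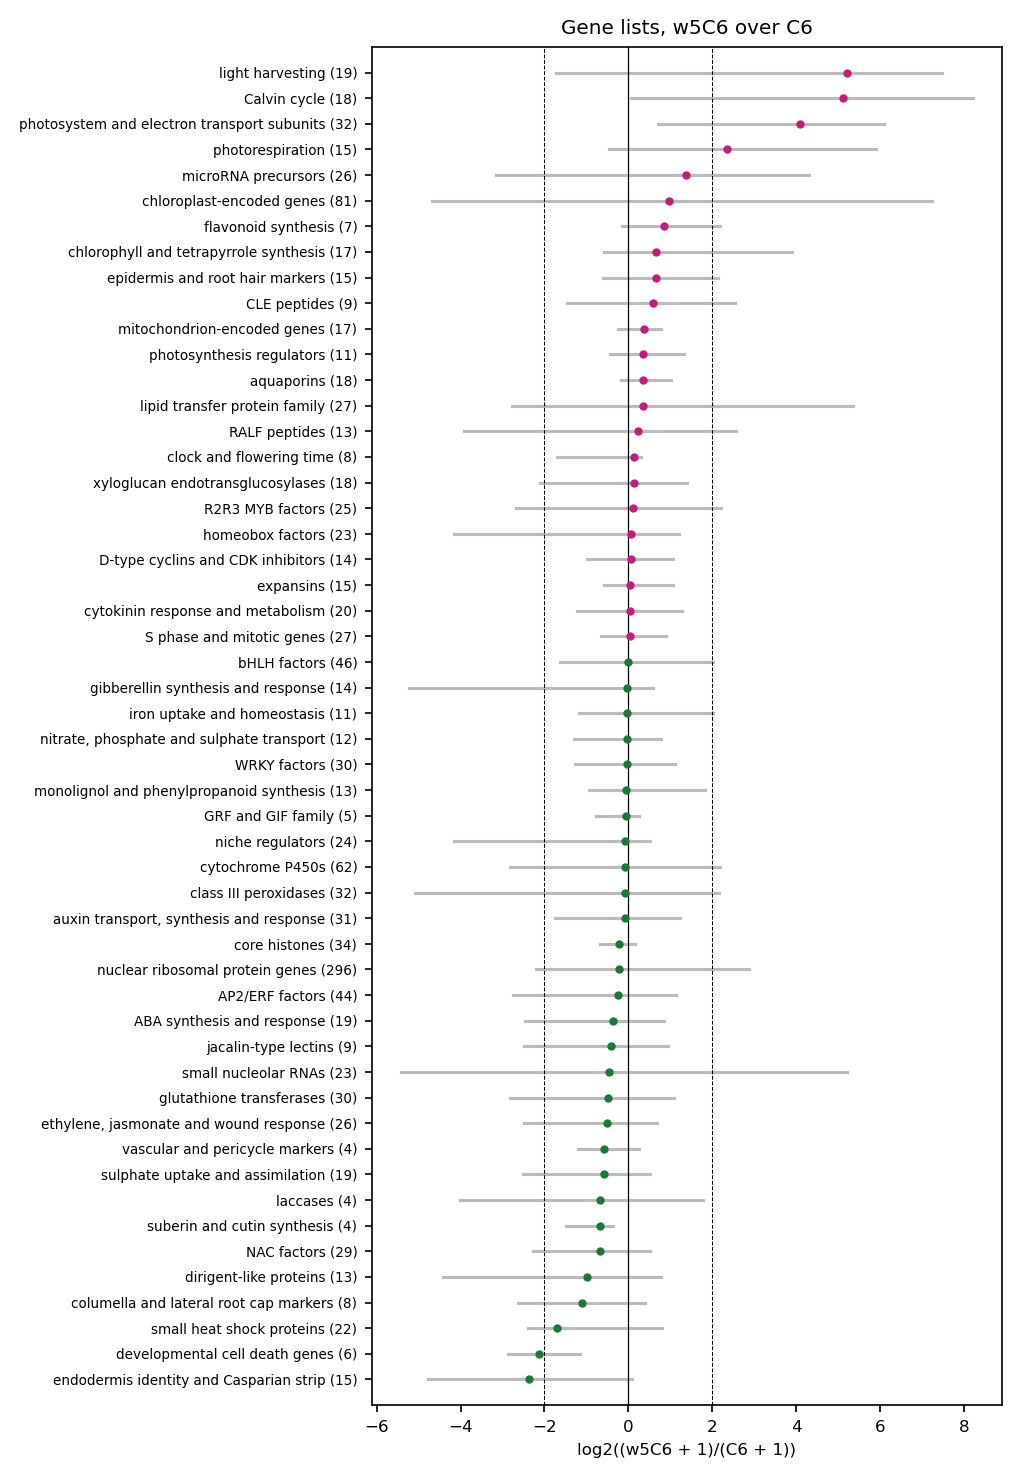
Median (point) and full range (bar) of log2((w5C6 + 1)/(C6 + 1)) over members that reached 10 FPKM, for each gene list with at least 4 such members (their number in brackets); dashed lines mark 4-fold. Light harvesting (5.22) and Calvin cycle (5.13) lie at the top, endodermis and Casparian strip (-2.37) at the bottom, and most hormone, division and transcription factor lists lie near 0.

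The loci past the mark were then read against all 4 populations. W5NS and W5S come from another line, so these are values set side by side and not tests. For 127 of the 244 higher loci (52%) w5C6 was at least 4-fold above each of the other 3 populations, and 67 of the 69 photosynthesis genes were among them. C6 was at least 4-fold below the other 3 in 9. Among these was AT4G22214, a defensin-like gene chosen after its values were seen, at 19.1 FPKM in C6 against 185 in w5C6, with 202 in W5NS and 628 in W5S. For 71 of the 160 lower loci (44.4%) C6 was at least 4-fold above the other 3, and in 5 w5C6 was that far below them. Medians over the lower loci, taken for each population separately, were 48 FPKM in C6 and 6.98 in w5C6, with 13 in W5NS and 14.1 in W5S. C6 exceeded both pWOX5:erGFP populations in 150 of the 160, and w5C6 was below both in 87 and above both in 24. C6 and w5C6 were far apart in these loci by selection, so such orders follow in part from the choice of loci. The same shares over all loci were not computed.

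Short and non-coding loci were frequent among the higher loci. Protein-coding genes made up 183 of the 244 higher and 150 of the 160 lower loci, and 11652 of the 12198 in all. MicroRNA precursors stood higher in 8 of 27 and lower in 1, small nucleolar RNAs higher in 7 of 23 and lower in 4, and transcribed pseudogenes higher in 10 of 41. Over all loci at the level 2.00% stood higher and 1.31% lower. The lists of microRNA precursors and small nucleolar RNAs were added after values were seen. MIR160a, the precursor of a microRNA that targets auxin response factors, was listed at 0 in C6, W5NS and W5S and read 19 FPKM in w5C6. MIR166a, whose product targets HD-ZIP III factors, read 10.2, 50.9, 19 and 10.5 FPKM in C6, w5C6, W5NS and W5S (2.21). MIR319a went the other way, at 12.2, 0.487, 18.2 and 7.79 (-3.15).

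Small nucleolar RNAs went both ways, mostly against a value of 0. AT2G43141 read 42 FPKM in C6 and was listed at 0 elsewhere, and AT2G35742 was listed at 0 in C6 and read 36.1 in w5C6. The 18S ribosomal RNA locus AT3G41768 was listed at 0 in C6 and read 943 FPKM in w5C6, 749 in W5NS and 926 in W5S. Median transcript length was 1300 bases in the higher photosynthesis genes, 806 in the other higher loci, 1218 in the lower loci and 1682 in all loci at the level. Transcripts under 300 bases made up 25.3% of the other higher loci with a known length (37 of 146), 0 of the 69 photosynthesis genes, 6.96% of the lower loci and 1.13% of all. For so short a transcript an FPKM value rests on few fragments at a given level.

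Loci past the mark were spread over the genome. The higher share ran from 1.32% on chromosome 5 to 2.54% on chromosome 1, and the lower share from 1.06% on chromosome 3 to 1.54% on chromosome 2. In gene order 6 runs of neighbours stood higher together (14 loci) and 5 runs lower (11 loci). The higher runs included CAB3, CAB2 and CAB1, which are near-identical copies, and GOX2 and GOX1. Among the lower runs were the cellulose synthase-like pair CSLB01 (23.1 FPKM in C6 and 3.11 in w5C6) and CSLB02 (29.3 and 2.65), and MC3, a metacaspase (53.6 and 9.73), between AT5G64230 (26.6 and 3.43) and AT5G64250 (310 and 52).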

How the data were processed

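The authors sequenced SMART-Seq libraries of sorted protoplasts, used fastq-mcf for trimming, HISAT2 for alignment and Cufflinks for expression (the latter tools also in the submitters' processing notes). No version, genome build, annotation or strand setting is given in the sources used here, and coordinates were left out. Each deposited value pools the libraries of 1 population and was read as FPKM from that pipeline, since the header names no unit. The authors deposited also log2 folds and q-values for each pair of populations, which were not used. Depth per library is unknown.

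Log2 ratios took a pseudocount of 1 FPKM, a minimum of 10 FPKM in the higher group and a 4-fold mark, with no test. Names, lengths and promoters came from RefSeq TAIR10.1, where 32756 of 33493 gene IDs matched. The 282 loci of several gene IDs were counted once. Members and 58 gene lists were chosen with earlier results of these data known. Of the lists 8 were added after values were seen (sulphate assimilation, cell death, myrosinases, jacalin-type lectins, RALF, CLE, microRNA precursors, small nucleolar RNAs), and the small heat shock list was widened. Named genes were niche regulators, the loci with the highest and lowest log2 ratios, the highest loci listed at 0 in 1 group, the largest FPKM differences, and list members past the mark or most abundant. Others, such as list members that show the order within a list, were chosen after their values were seen. The counting code was tried on simulated data in which only well-expressed loci were changed, with mild noise. That trial does not assess low, short or 0-valued loci. Alternatives were pseudocounts, minimums, folds, scalings, exclusion of loci, and motif strand. Python 3.11.15, pandas 2.3.3, NumPy 2.4.6 and matplotlib 3.10.9 were used. One item is not reported here.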

Additional observations from a re-analysis of the deposited data

How the results depend on the processing

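No paired analysis was possible because each population has 1 pooled value and the columns carry no replicate numbers, and for the same reason leaving out replicates was not possible. The counts of 244 higher and 160 lower loci became 112 and 82 with a pseudocount of 5 FPKM, 94 and 104 with a minimum of 30 FPKM, 610 and 673 at 2-fold, and 130 and 33 at 8-fold. With a minimum of 1 FPKM, and also with none, the counts were 506 and 230. Restricted to protein-coding loci, an alternative chosen after seeing the data, the counts were 183 and 150. Scalings to equal medians, nuclear sums or upper quartiles gave 61.8%, 66.1% and 69.5% higher among loci past the mark, against 60.4%.

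The median log2 ratio of the Calvin cycle was 6.33 with a pseudocount of 0.1 and 3.37 with 5, and 5.75 with a minimum of 30 FPKM. Light harvesting had 3.68 with a pseudocount of 5, and 4.15 with a minimum of 1 FPKM or none, and photosystem subunits 2.98 with a pseudocount of 5. Photorespiration had 0.86 with a minimum of 30 FPKM and 1.65 with none. Endodermis had -1.15 with a minimum of 1 FPKM or none and -2.98 with 30. Dirigent-like proteins had -2.77 with a minimum of 30 and -0.01 with none, and small heat shock proteins -0.20 with none. Lists with a median of 1 or more in size numbered 12, and 6 with no minimum. Among lists with a median of 0.60 or more in size, signs turned for laccases (0.45 with a minimum of 1 FPKM, 0.01 with none). They also turned for CLE peptides (-1.46 with a minimum of 30, 1 gene left), seed genes (0.03 with none) and NAC factors (0.02 with none). With no minimum some lists of smaller median also turned, such as jacalin-type lectins (-0.41 to 0.47) and stomatal and leaf epidermis genes (-0.34 to 0.38). The shifts with a minimum follow which genes it admits, and those with a pseudocount arise over the same genes.

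At 2-fold outside the range of the other populations the counts were 208 for w5C6 above, 23 for C6 below, 116 for C6 above and 22 for w5C6 below. With motifs on the forward strand only, the higher loci held an I-box in 14.8% (24.6% of the 69 photosynthesis genes), an AC element in 3.3%, a WUS-type site in 2.75% and site II in 9.89%, and the lower loci an I-box in 10% and a WUS-type site in 2%. The shares of all loci at 10 FPKM or more were then 7.5%, 2.98%, 4.11% and 12.4%. Of 2009 pairs of a named gene past the mark and an alternative, 139 dropped below the mark. A turn of sign was not possible for these genes, so its absence says nothing about them. Pseudocounts, minimums and exclusions keep the sign, and the largest scale factor was 1.12. Without libraries no error can be attached to any ratio, and low or short loci are the least certain.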

Other observations

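Several families held single members far from their family's median. Of 30 glutathione transferases, which conjugate glutathione to reactive compounds, 2 stood lower and 0 higher past the 4-fold mark (median log2 ratio -0.48). GSTU4 read 78.8 FPKM in C6 against 10.4 in w5C6, with 6.84 in W5NS and 2.87 in W5S (-2.81), and GSTU19, the most abundant member, 2942, 1420, 1808 and 2623 (-1.05). Lipid transfer proteins gave 3 of 27 higher and 1 lower (0.34). AT2G10940 stood at 0.0596 FPKM in C6 and 42.6 in w5C6, with both pWOX5:erGFP populations listed at 0, and AT3G22620 went the other way, at 477, 69, 127 and 169 FPKM (-2.77). Laccases gave 1 of 4 lower (-0.67), cytochrome P450s 1 of 62 higher and 3 lower (-0.09), class III peroxidases 1 of 32 higher and 2 lower (-0.09), and xyloglucan endotransglucosylases 1 of 18 lower, XTH16 at 41.4 and 8.88 FPKM in C6 and w5C6 (-2.10). Nitrate, phosphate and sulphate transporters gave 0 of 12 (-0.03) and expansins, which loosen the wall, 0 of 15 (0.05).

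Some of the most abundant transcripts of the marker cells showed large differences in FPKM. AT5G54370, annotated as similar to late embryogenesis proteins, stood at 4582 FPKM in C6 and 896 in w5C6, with 1266 in W5NS and 2116 in W5S. AT1G50060, of the cysteine-rich secretory family, read 2960, 541, 919 and 2493 FPKM, and AT5G55110, a Stig1-like protein, 1637, 364, 612 and 941. For all 3, w5C6 was the lowest population and C6 the highest. Toward w5C6 the arabinogalactan protein gene AGP24 stood at 2059, 3601, 940 and 809 FPKM (0.81), which is within the mark.

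Other loci past the mark, chosen after their values were seen, belong to secondary metabolism and low-oxygen or carbon metabolism. NSP3, which steers glucosinolate breakdown to nitriles, read 13.6 FPKM in C6 against 97.7 in w5C6, with 18.1 in W5NS and 21.5 in W5S (2.76). SNG1, which forms sinapoylmalate, read 1.53, 18.8, 0.95 and 1.18 FPKM (2.97). EFE, an ethylene-forming oxidase, read 652, 133, 135 and 176 FPKM (-2.28). HB1, a haemoglobin known from low oxygen, read 53.9, 11.3, 14.3 and 56.7 (-2.16), and PPDK, which links pyruvate to phosphoenolpyruvate, 63, 9.79, 13.7 and 47 (-2.57). In the last pair C6 lay close to W5S, and w5C6 close to W5NS.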
